A study of Mus musculus with 16 samples.

Results

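Regions that were accessible in macrophages under all 4 conditions of the study numbered 26439. Of these, 2293 (8.67%) lost at least 10 percentile points of peak rank with the LXR agonist T0, both in unstimulated and in LPS-treated cells. The authors had kept peaks at H3K27ac or H3K4me2 marks, which include promoters. Of the 26439 regions, 39.2% lay within 1 kb of a transcription start site. These 2293 regions, called weakened regions here, kept an ATAC-seq peak in every list and became weaker relative to the other peaks of their list. To find them, overlapping peaks of the 4 lists were merged into 37648 regions, the regions with a peak in every list were retained, and each region took the highest peak score in each list together with the percentile of that score among all peaks of the list. A region counted as weakened when its percentile was lower by 10 points or more in T0 than in Veh and also in T0-LPS than in LPS. The percentiles and scores given below for the weakened regions, and the changes in them, are therefore values that chose the regions. Peak widths were not used by the rule but come from the same peaks and contrasts, and all of these are a description with no test.

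ATAC-seq was performed on macrophages grown from the bone marrow of C57BL/6J mice, on day 8 of culture and with 50000 cells in each of 16 libraries. The Veh group received DMSO and the T0 group the synthetic LXR agonist T0901317 at 500 nM, both for 3 h. The LPS and T0-LPS groups had the same pretreatments with DMSO or T0901317 and then had lipopolysaccharide added at 10 ng/mL for 2 h more, so that a comparison with LPS also compared 3 h with 5 h of culture. All groups were serum-deprived before treatment and kept in medium with L-cell conditioned medium. Each group had 4 libraries, which the authors pooled into a single peak list, so that no value has a replicate check. Intervals below are Wilson 95% intervals over regions and cover counting error only. The read depth of the libraries is unknown, and because a peak score grows with depth, ratios of scores between lists are given only beside those of all shared regions. At promoters, 7 of 8 macrophage marker genes had a peak in the Veh and T0 lists and 8 of 8 in the LPS and T0-LPS lists. Of 4 T cell markers 0 had one, of 4 B cell markers 1 (Ms4a1), of 4 neutrophil markers 1 (S100a8), of 4 epithelial markers at most 1 and of 4 fibroblast markers at most 2. The authors had kept only peaks at enhancers marked in macrophages. These counts therefore partly follow from that filter and cannot check the identity of the cells.

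The liver X receptor (LXR) belongs to the nuclear receptors, is activated by oxysterols and pairs with the retinoid X receptor on DNA. It induces genes of cholesterol efflux and fatty acid synthesis in macrophages and dampens the expression of inflammatory genes that LPS induces through TLR4. Enhancers of macrophages are opened by lineage factors such as PU.1, C/EBP, RUNX and AP-1, and the Tn5 transposase used in ATAC-seq cuts preferentially where DNA is open. A lower score in such an assay can reflect fewer cells with the enhancer open or less opening per cell, and these cannot be told apart in bulk samples.

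The LXR-RXR dimer classically binds a direct repeat of AGGTCA with a spacer of 4 bases, called DR4. The 200 bases at the centre of 4 weakened regions are shown because these were, of the 5 weakened regions with a DR4-like sequence and the largest falls, the ones whose sequence overlapped no annotated exon. They are given 5′ to 3′ on the plus strand of GRCm38, and capitals mark every match, on either strand, to any of the 11 motifs searched, which are listed with the motif results.
Dusp9, chrX:73580271-73580470: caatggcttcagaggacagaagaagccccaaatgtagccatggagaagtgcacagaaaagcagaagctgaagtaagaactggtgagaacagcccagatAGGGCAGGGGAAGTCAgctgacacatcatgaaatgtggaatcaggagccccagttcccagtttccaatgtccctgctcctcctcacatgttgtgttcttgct
Fam184a, chr10:53888653-53888852: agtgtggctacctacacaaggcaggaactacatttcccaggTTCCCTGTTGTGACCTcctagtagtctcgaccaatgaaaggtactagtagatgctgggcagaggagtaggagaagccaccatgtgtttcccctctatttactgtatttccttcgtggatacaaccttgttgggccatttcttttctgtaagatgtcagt
Dscam, chr16:97165784-97165983: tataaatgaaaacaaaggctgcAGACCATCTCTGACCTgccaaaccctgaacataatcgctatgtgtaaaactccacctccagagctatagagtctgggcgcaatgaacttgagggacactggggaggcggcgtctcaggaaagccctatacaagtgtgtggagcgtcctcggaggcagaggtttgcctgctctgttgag
Add3, chr19:53170701-53170900: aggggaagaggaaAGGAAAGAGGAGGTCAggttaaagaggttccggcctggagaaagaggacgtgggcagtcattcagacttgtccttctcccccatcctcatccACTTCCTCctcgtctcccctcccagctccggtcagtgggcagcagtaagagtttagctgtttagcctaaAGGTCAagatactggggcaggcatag
Each of these DR4-like matches differed from the full repeat at 2 bases. The match near Dusp9 began at base 99 and held no exact AGGTCA, whereas those near Fam184a and in Dscam lay on the minus strand and ended, as printed, in TGACCT, an exact AGGTCA on that strand. The Add3 sequence held a DR4-like match from base 14, a second AGGTCA from base 175 and the PU.1 element GAGGAAGT, on the minus strand, from base 106.

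The same stretch is shown for 4 of the 10 weakened regions with the largest falls, to contrast with the DR4-like set. They were the first 4, selected on the size of the fall, whose stretch overlapped no annotated exon, pseudogenes included. None of the 10 had a DR4-like sequence or an AGGTCA, which 1.74% and 12.3% of all weakened regions held. With 10 regions, a difference from those shares cannot be read.
Lpin2, chr17:71178814-71179013: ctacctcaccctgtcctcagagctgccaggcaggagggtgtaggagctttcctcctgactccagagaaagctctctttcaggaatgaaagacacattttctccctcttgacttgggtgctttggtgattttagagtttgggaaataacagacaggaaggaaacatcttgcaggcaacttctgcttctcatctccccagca
Scarb2, chr5:92499527-92499726: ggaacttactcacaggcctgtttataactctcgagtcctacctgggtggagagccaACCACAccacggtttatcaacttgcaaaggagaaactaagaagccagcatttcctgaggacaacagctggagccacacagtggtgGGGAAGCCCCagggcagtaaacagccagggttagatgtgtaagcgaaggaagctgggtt
Mctp1, chr13:76620611-76620810: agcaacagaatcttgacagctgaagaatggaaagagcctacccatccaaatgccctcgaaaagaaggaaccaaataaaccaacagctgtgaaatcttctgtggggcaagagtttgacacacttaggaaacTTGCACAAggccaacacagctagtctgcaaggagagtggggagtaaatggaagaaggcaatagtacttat
Sel1l, chr12:91852838-91853037: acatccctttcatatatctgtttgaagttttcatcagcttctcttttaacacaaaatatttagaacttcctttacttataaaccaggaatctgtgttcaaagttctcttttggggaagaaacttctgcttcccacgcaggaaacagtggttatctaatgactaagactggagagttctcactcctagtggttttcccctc
The Lpin2 and Sel1l stretches matched none of the 11 motifs. The Scarb2 stretch held a RUNX and an NF-kB match, and the Mctp1 stretch a C/EBP match.

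Weakened regions came from the middle of the Veh list. Their median percentile was 49.5 in Veh against 30.1 in T0, and 46.5 in LPS against 28.2 in T0-LPS, whereas the medians over all 26439 shared regions were 62.4, 55.3, 59.4 and 56.7. The median change was -16.8 points from Veh to T0 and -15.5 points from LPS to T0-LPS, beside -5.33 and -1.57 points over all shared regions. The smaller of the 2 falls of a region had a median of 13.2 points and a maximum of 35.3 points, and 206 regions (8.98%) fell by 20 points or more both times. On the scale of the peak scores, the T0 to Veh ratio had a median of 0.558 for weakened regions and 0.724 for all shared regions, and the T0-LPS to LPS ratio 0.629 and 0.876. These ratios also carry any difference in depth between the lists. Peaks were also narrower. The median width of weakened regions fell from 361 bp in Veh to 284 bp in T0 and from 329 bp in LPS to 302 bp in T0-LPS, and 93.8% were narrower in T0 than in Veh, beside 87.7% of all shared regions. Of the weakened regions, 75.0% were narrower in T0-LPS than in LPS, beside 63.8%.

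**Figure D1:**
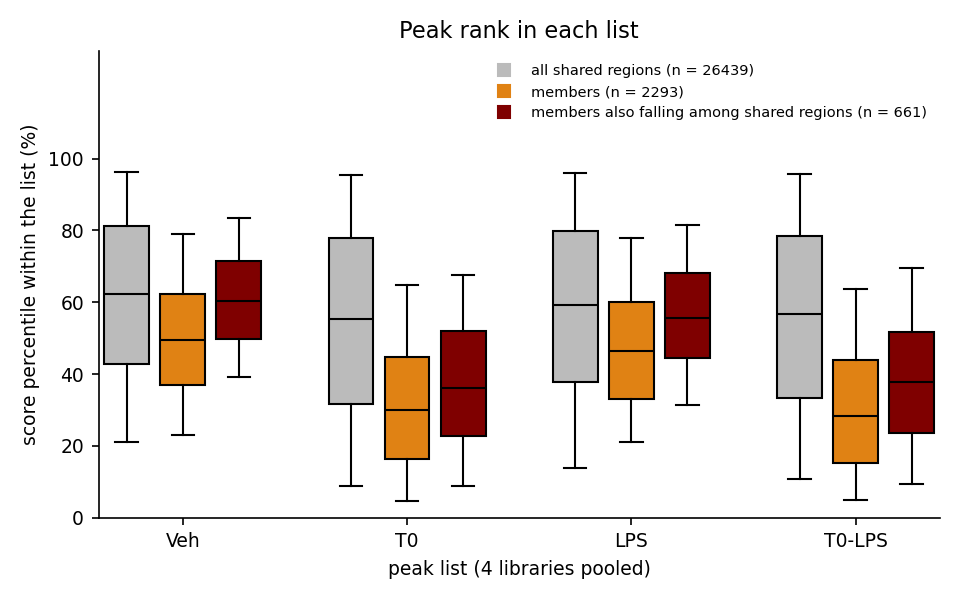
Score percentile (y axis, %) in the 4 peak lists for all shared regions, for the weakened regions (members) and for the 661 of them that also fell when ranked among shared regions only; boxes give the median and quartiles and whiskers the 5th and 95th percentile of regions. The medians of the weakened regions were near 50 in Veh and LPS and near 30 in T0 and T0-LPS.

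The count depended on what a peak was ranked against. The fall from Veh to T0 reached 10 points in 8743 of the shared regions (33.1%) and that from LPS to T0-LPS in 4859 (18.4%), and the weakened regions were 26.2% of the first set and 47.2% of the second. Only 66 shared regions (0.25%) gained 10 points or more both times. The T0 and T0-LPS lists were shorter than the Veh and LPS lists, with 29839 and 31085 peaks against 35551 and 33181. A percentile depends on which peaks its list holds, and the part of list length in the falls was not tested. Percentiles were then taken among the 26439 shared regions only, a ranking in which the points gained and lost cancel in each comparison. Under it, 666 regions (2.52%) fell by 10 points or more both times and 660 (2.5%) rose. This ranking fixes the mean change but not these counts. Thus the split of 2293 against 66 became 666 against 660. Of the 2293 weakened regions, 661 (28.8%) fell by 10 points or more under this ranking as well, and they made up 99.2% of the 666. The other 1632 did not reach such falls both times. Under this ranking the change from Veh to T0 of weakened regions ran up to a rise of 2.30 points. The 661 regions, called doubly ranked regions below, had median percentiles of 60.3 in Veh against 36.1 in T0 and of 55.5 in LPS against 37.7 in T0-LPS, and values for them stand beside many of the results below.

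**Figure D2:**
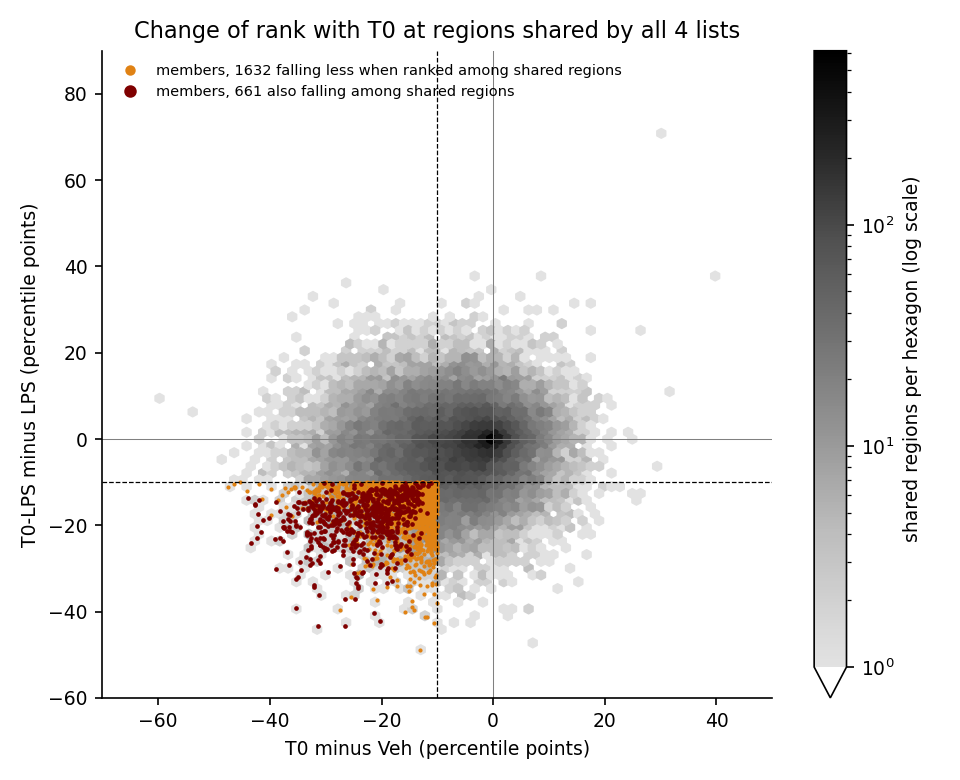
Change in percentile from Veh to T0 (x axis) and from LPS to T0-LPS (y axis) for each of the 26439 shared regions, in hexagons shaded by their number on a log scale, with dashed lines at -10 points. Weakened regions fill the lower left corner by the rule. In dark red are the 661 that also fell by 10 points or more both times when ranked among shared regions, and in orange the 1632 that did not.

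At the limit of the rule, the weakened regions with the smallest falls were those nearest Klf6, in Lrp2 and in Zfp993, each of which fell by 10.0 points from LPS to T0-LPS and by 11.2, 11.1 and 20.0 points from Veh to T0. The shared regions just outside lay at Utrn, Puf60 and Rsph1. The last fell by 9.99 points from LPS to T0-LPS, and the Utrn and Puf60 regions fell by 10.0 points, rounded from just under the limit, from Veh to T0. Regions on either side of the limit had like values, and the limit is a working definition.

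The 10 weakened regions with the largest falls had Veh scores of 261 to 444 and T0 scores of 83 to 179, with LPS scores of 234 to 506 and T0-LPS scores of 81 to 237. Their percentiles lay between 35.1 and 57.9 in Veh and between 2.96 and 26.5 in T0. In the LPS list they lay between 36 and 70.9, and in the T0-LPS list between 3.59 and 40.9. All 10 were doubly ranked regions.

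The first lay 134563 bp upstream of Usp9x, which encodes a deubiquitinase, at chrX:12936698-12937154. It ranked at percentile 48.1 in Veh (score 356), 12.8 in T0 (score 125), 50.0 in LPS (score 319) and 10.8 in T0-LPS (score 110), so that it was in the middle of both lists without agonist and near the bottom of both lists with it. Its central 200 bases overlapped an annotated processed pseudogene. The region 4642 bp upstream of Lpin2, a phosphatidic acid phosphatase of glycerolipid synthesis, went from 40.1 in Veh to 4.89 in T0 and from 36 in LPS to 3.59 in T0-LPS. The region in an intron of Scarb2, which encodes a lysosomal membrane protein, went from 35.1 in Veh to 2.96 in T0 and from 52.7 in LPS to 18.8 in T0-LPS. Both were among the weakest peaks of the T0 list.

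Further regions lay at genes of protein quality control, cell death and signalling. The region 3781 bp upstream of Sel1l, a component of endoplasmic reticulum-associated degradation, had the deepest fall of the 10 under LPS, from 55.9 to 12.5, after 57.8 in Veh and 26.5 in T0. The region in an intron of Gsdme, which encodes a pore-forming gasdermin, fell from 43.1 to 8.73 and, under LPS, from 41.2 to 10.8. The intronic region of Ednrb, the endothelin B receptor, fell from 41.8 to 10.7 and from 41.2 to 4.93, and that of Skp2, a substrate adaptor of a ubiquitin ligase, from 45.3 to 15.7 and from 40.5 to 9.66. The intronic region of Mctp1 fell from 57.9 to 22.9 and from 51.3 to 19.3, and a region in a coding exon of Diexf from 40.0 to 7.99 and from 50.5 to 16.2. The remaining region, nearest Tex13c3 at a distance of 385647 bp, was the strongest of the 10 under LPS and fell there from 70.9 to 40.9, and without LPS from 51.7 to 12.8. These genes name positions, and whether a region acts on the gene was not measured.

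**Figure D3:**
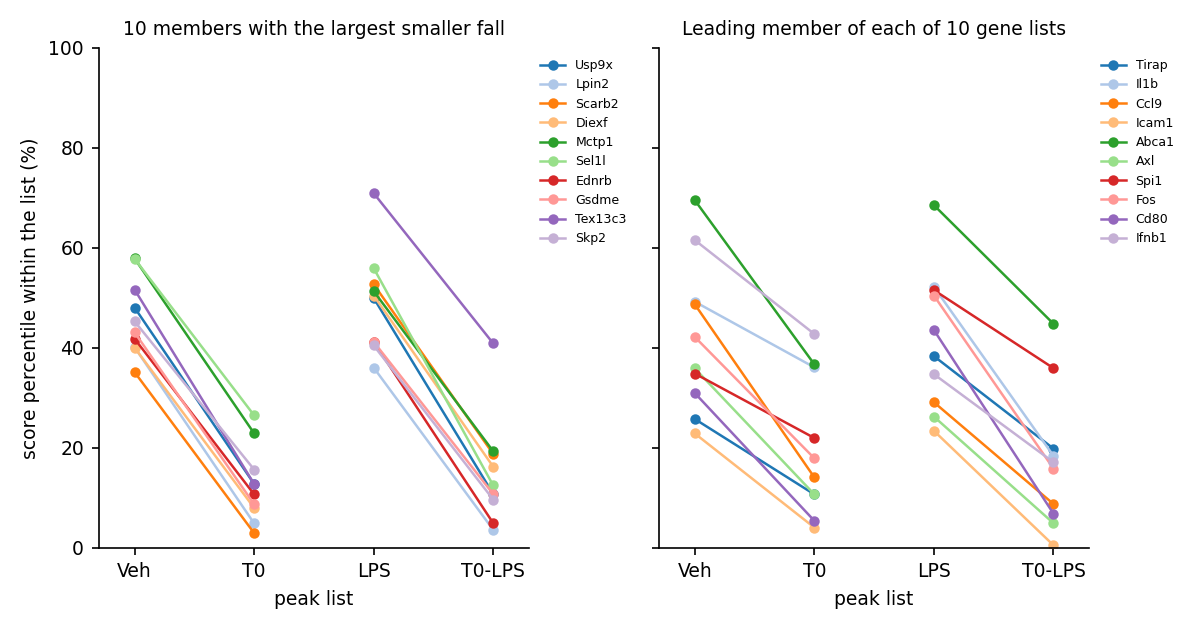
Score percentile (y axis, %) in the 4 lists for single weakened regions, with lines joining Veh to T0 and LPS to T0-LPS; left, the 10 with the largest falls, labelled by nearest gene, and right, the leading weakened region within 100 kb of a gene of each of 10 gene lists. All lines fall by the rule, and the T0 and T0-LPS values of the left panel lie between 2.96 and 40.9.

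Weakened regions were found away from promoters more often than the other shared regions, a property that the rule did not use. Of the 2293, 479 (20.9%, interval 19.3 to 22.6) had their midpoint within 1 kb of a transcription start site (TSS) of the GENCODE vM21 annotation, against 39.2% of all shared regions. Of the doubly ranked regions it was 18.2% (15.4 to 21.3), and of the 660 regions that rose under the same ranking 51.7% (47.9 to 55.5). Weighting the other shared regions to the Veh percentile deciles of the weakened regions gave 36.6% within 1 kb, and weighting to the LPS deciles 36%, so that the difference remained at like starting rank. The median distance to a TSS was 15100 bp against 5619 bp, and 58.6% lay beyond 10 kb against 43.4%. For doubly ranked regions the median distance was 19156 bp, and 63.8% lay beyond 10 kb. Introns held 45.1% of the weakened regions and sequence outside protein-coding genes 43.7%, while untranslated regions held 8.72% against 15.2% of all shared regions.

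Read the other way, the share of shared regions that were weakened was 4.62% within 1 kb of a TSS, 10.3% from 1 to 10 kb, 11.5% from 10 to 50 kb and 12.1% beyond 50 kb. It varied with base composition as well. From the lowest to the highest quintile of GC content in the central 200 bp, 14.1%, 10.3%, 8.87%, 5.10% and 4.47% of shared regions were weakened. The median GC content was 49.5% for weakened regions, 48.5% for doubly ranked regions and 53.5% for all shared regions. Part of this moved with the distance to promoters. Beyond 1 kb of a TSS the mean was 48.0% for weakened regions and 49.9% for other shared regions weighted to the same Veh deciles. Composition can affect amplification and hence peak scores, and its part in the falls was not tested.

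By Veh rank, 0 of 321 shared regions below percentile 10 were weakened, as a peak there cannot fall by 10 points. The share was 14.3%, 13.8%, 14.6% and 13.4% in the deciles from percentile 20 to 60, and dropped to 2.58% between 80 and 90 and 0.227% above 90. Only 8 of the 3526 strongest Veh regions were weakened. The Veh percentile is a value that the rule used, so this pattern is a description. The T0 list was shorter than the Veh list, and the part of list length in the pattern was not tested. Doubly ranked regions started higher, with their largest share, 4.70%, between percentiles 50 and 60.

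**Figure D4:**
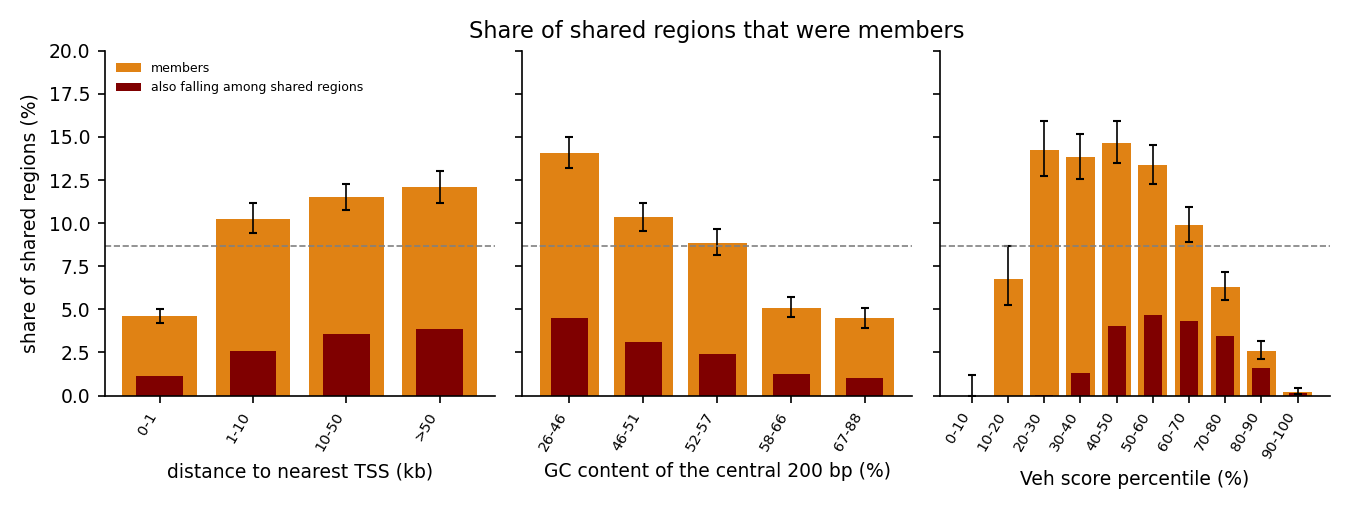
Share of shared regions that were weakened (y axis, %; orange, with Wilson 95% intervals) and that were doubly ranked (dark red), by distance to the nearest TSS, by GC content of the central 200 bp and by Veh percentile; the dashed line is the share over all shared regions, 8.67%. The share rises from 4.62% within 1 kb of a TSS to 12.1% beyond 50 kb and falls from 14.1% to 4.47% with GC content.

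The 479 weakened regions within 1 kb of a TSS differed from the 1814 beyond in composition, with a median GC content of 64.0% against 47.5%. Their falls were of like size. The median change from Veh to T0 was -16.0 points near a TSS and -16.9 points away from it, and that from LPS to T0-LPS -14.7 and -15.8 points. Near a TSS 25.1% were doubly ranked, and away from it 29.8%.

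Motifs were searched in the central 200 bp on both strands. They were the nuclear receptor element AGGTCA, DR4 (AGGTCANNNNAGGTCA with up to 2 mismatches outside the spacer), AP-1 (TGAGTCA), PU.1 (GAGGAAGT), RUNX (TGTGGT), C/EBP (TTGCNNAA), ISRE (GAAANNGAAA), the E-box CACGTG, the GC box GGGCGG, and NF-kB and CTCF consensus sequences. A match to DR4 can hold an AGGTCA, and 21 of the 40 weakened regions with a DR4-like sequence had an exact AGGTCA in the window. A match is a description of the letters and not evidence of binding.

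Sequences of nuclear receptors were found in weakened regions at shares close to those of other shared regions. AGGTCA was found in 282 of 2293 (12.3%, interval 11.0 to 13.7), beside 11.6% of all shared regions. A DR4-like sequence was found in 40 (1.74%, 1.28 to 2.37), beside 470 of all shared regions (1.78%). With up to 1 mismatch it was found in 3 weakened regions and 50 of all shared regions, and the exact repeat in 1 and 5. Beyond 1 kb of a TSS, where other shared regions could be weighted to the same Veh decile and GC quintile, AGGTCA was in 13.2% (11.7 to 14.9) of weakened regions against 15% of the others, and a DR4-like sequence in 1.98% (1.44 to 2.74) against 2.47%. Among doubly ranked regions the values were 12.4% (9.87 to 15.4) against 15.2%, and 2.59% (1.55 to 4.30) against 2.26%. Thus AGGTCA was rarer in weakened regions than in the weighted others by slightly more than counting error, and the DR4 shares differed by less than counting error. Of the 660 regions that rose under ranking among shared regions, 14.9% (12.4 to 17.8) had an AGGTCA and 3.19% (2.09 to 4.82) a DR4-like sequence.

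The elements of macrophage lineage factors were common. Over all distances PU.1 was found in 10.9% of weakened regions (9.73 to 12.3), in 14.2% of doubly ranked regions (11.8 to 17.1) and in 8.50% of all shared regions. RUNX was found in 21.2% (19.6 to 22.9), 24.1% (21 to 27.5) and 16.9%, and C/EBP in 13.2% (11.8 to 14.6), 12.3% and 10.3%. The GC box, typical of promoters, had 15.8% of weakened regions against 28.2%. The differences for PU.1, RUNX and C/EBP were smaller once promoters were left out and starting rank and composition were weighted. Beyond 1 kb and weighted as above, PU.1 was in 12.8% (11.3 to 14.4) of weakened regions against 11.9%, RUNX in 24.4% (22.4 to 26.4) against 22.6% and C/EBP in 14.7% (13.2 to 16.4) against 14.9%. For these 3 elements, only the intervals of doubly ranked regions left out the weighted value of the others, with PU.1 in 16.1% (13.2 to 19.4) against 12.5% and RUNX in 27.5% (23.9 to 31.5) against 23.5%. The E-box CACGTG was the rarer one there, in 9 of 541 regions (1.66%, 0.878 to 3.13) against 4.00%. With 11 motifs read in each set, some intervals may leave out the other value by counting error alone.

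AP-1, which LPS activates together with NF-kB, was found in 15.6% of weakened regions (14.1 to 17.1), beside 13.6% of all shared regions. Beyond 1 kb it was in 18.7% (17.0 to 20.5) against 19.6% of the weighted others, and in doubly ranked regions in 17.2% (14.2 to 20.6) against 21%, a value just above that interval. NF-kB was in 2.83% (2.23 to 3.60) of weakened regions beside 3.58% of all, and the interferon-stimulated response element ISRE in 4.45% (3.68 to 5.37) beside 3.27%. Beyond 1 kb and weighted, NF-kB was in 2.81% (2.14 to 3.68) against 3.43%, and ISRE in 4.91% (4.00 to 6.00) against 4.49%. In doubly ranked regions ISRE was in 4.25% (2.85 to 6.30) against 4.48%. These weighted differences were within counting error, whereas over all distances the interval of ISRE left out the 3.27% of all shared regions.

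**Figure D5:**
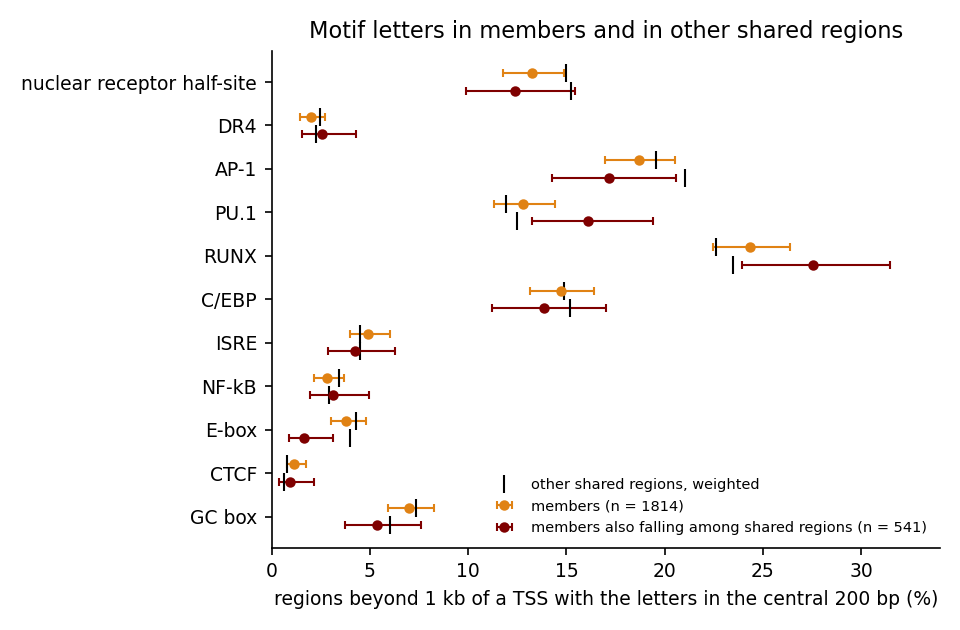
Share of regions beyond 1 kb of a TSS with each motif in the central 200 bp (x axis, %; points with Wilson 95% intervals) for 1814 weakened regions (orange) and 541 doubly ranked regions (dark red), with the share of other shared regions weighted to the same Veh decile and GC quintile (black ticks). The points of weakened regions lie within 2 percentage points of their ticks, and PU.1 and RUNX of doubly ranked regions lie to the right of theirs.

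The 5 weakened regions with a DR4-like sequence and the largest falls were all doubly ranked, with Veh percentiles of 41.8 to 72.6 and T0 percentiles of 15.1 to 46.9. The region 59048 bp upstream of Dusp9, a phosphatase of MAP kinases, fell from 49.2 to 19.1 and, under LPS, from 47.2 to 21.4. The region in Dscam, an adhesion molecule, fell from 44.4 to 21.1 and from 35.7 to 4.93. The Add3 region, in an intron of the gene of an adducin of the membrane skeleton, was the strongest of them, at 72.6 in Veh and 46.9 in T0, and at 68.8 in LPS and 47.2 in T0-LPS. The Fam184a region fell from 41.8 to 15.1 and from 42.8 to 19.3. A region in the untranslated sequence of Mid1ip1, whose product acts in fatty acid synthesis, fell from 65.9 to 32.6 and from 53.0 to 31.0.

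By gene, 5531 of 21938 protein-coding genes (25.2%) had a weakened region within 100 kb of the TSS. The 12 gene lists read here, which were chosen with earlier results of these data known, held 167 genes found in the annotation, and each of them had a shared region within 100 kb. Since most lists had more shared regions per gene, with medians of 3 to 11, than all protein-coding genes, with a median of 4, the share of shared regions around a list that were weakened, beside 8.67% over all, is given with each list.

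Regions around the known targets that LXR induces were weakened at a share near the 8.67% over all shared regions. Of 15 LXR target genes 8 had one, and 10 of the 99 shared regions around the list were weakened (10.1%, interval 5.58 to 17.6). The region in an intron of Abca1, the cholesterol efflux transporter, at chr4:53149657-53150037, had a percentile of 69.5 in Veh (score 569), 36.7 in T0 (score 226), 68.5 in LPS (score 481) and 44.8 in T0-LPS (score 259). It was 1 of 14 shared regions within 100 kb of the Abca1 TSS and the only weakened one. A region 43655 bp from Cd5l, a scavenger protein of macrophages, lay in an intron of Fcrl1 and fell from 66.6 to 34.2 and, under LPS, from 41.2 to 23.6. A region in an intron of Mylip, which encodes a ubiquitin ligase, held an AGGTCA and fell from 44.7 to 24.3 and from 28.7 to 13.9. Abcg1, Apoe, Fasn, Lpl, Nr1h3, Scd1 and Srebf1 had none within 100 kb.

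Of 13 genes of sterol synthesis and uptake 4 had a weakened region, and 4 of 50 shared regions were weakened (8.0%, 3.15 to 18.8). A region 35466 bp upstream of Hmgcs1, a synthase of the mevalonate pathway, fell from 57.2 to 30.6 and, under LPS, from 64.7 to 21.4. A region at the 5′ end of Scap, the escort protein of SREBP, fell from 52.3 to 27 and from 48.4 to 34.4. Both were doubly ranked, and Sqle and Srebf2 had no weakened region.

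Of 13 inflammatory cytokines and mediators 4 had a weakened region, Il1a, Il1b, Il1rn and Il27, and 3 of 81 shared regions were weakened (3.70%, 1.27 to 10.3). The region 9241 bp upstream of Il1b counted for Il1a also. Neither it nor the others of this list were doubly ranked. The region at Il1rn, the interleukin-1 receptor antagonist, fell from 32.8 to 21.7 in unstimulated cells and from 54.7 to 28.2 under LPS. Ranked among shared regions only, it rose by 1.30 points from Veh to T0. Il6, Il12b, Tnf, Nos2 and Ptgs2, all induced by LPS, had no weakened region within 100 kb, with 5, 6, 14, 3 and 2 shared regions there.

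Of 16 genes of TLR4 signalling 6 had a weakened region, and 8 of 125 shared regions were weakened (6.4%, 3.28 to 12.1). The region at the 5′ end of Irak1, a kinase downstream of MyD88, was of high GC content (77.0%) and fell from 50.4 to 27 and from 54.0 to 40.5. A region 75992 bp from Tirap, an adaptor of TLR4, lay nearer to St3gal4 and fell from 25.8 to 10.7 and from 38.3 to 19.8. Tlr4, Myd88, Traf6 and Map3k7 had none.

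Of 15 chemokine genes 9 had a weakened region, and 7 of 71 shared regions were weakened (9.86%, 4.86 to 19.0). Chemokine genes lie in clusters, so that 1 region counts for several of them. The region in an intron of Ccl9 fell from 48.7 to 14.1 and, under LPS, from 29.1 to 8.77. A region 41525 bp from Ccl22, a ligand of CCR4, fell from 48.7 to 19.1 and from 54.3 to 34.2, and a region 68792 bp from Cxcl16 from 33.1 to 14.1 and from 49.1 to 30.3. Ccl2, Ccl7, Cxcl1, Cxcl2, Cxcl3 and Cxcl5 had none.

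Of 14 genes of leukocyte adhesion 7 had a weakened region, and 8 of 122 shared regions were weakened (6.56%, 3.36 to 12.4). The region in the untranslated sequence of Mrpl4, 13121 bp from Icam1, was among the weakest peaks and fell from 22.9 to 4.06 and from 23.4 to 0.521. A region 85465 bp upstream of Cd44, the hyaluronan receptor, fell from 44.4 to 13.4 and from 51.3 to 34.9.

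Of 9 costimulatory molecules 6 had a weakened region, and 9 of 60 shared regions were weakened (15%, 8.10 to 26.1). This was the highest share of the 12 lists, and its interval held the share over all shared regions. Of the 60 regions 5 were doubly ranked, beside 661 of all 26439 shared regions. The region 51742 bp from Cd80, a ligand of CD28, lay in an intron of Pla1a and fell from 31.0 to 5.42 and, under LPS, from 43.6 to 6.84. A region in an intron of Pdcd1lg2, the gene of the PD-1 ligand PD-L2, went from 77.5 in Veh to 60.2 in T0 and from 70.4 in LPS to 53.0 in T0-LPS, and held an AGGTCA. Icosl, the ligand of ICOS, had 4 weakened regions among its 13 shared regions.

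Of 13 phagocytic and scavenger receptor genes 8 had a weakened region, and 12 of 124 shared regions were weakened (9.68%, 5.62 to 16.2). The region nearest Marco, a scavenger receptor, 27749 bp upstream, stood at 41.8 in Veh and 19.1 in T0 but at 80.1 in LPS and 59.6 in T0-LPS, so that it was higher in both lists with LPS and lower in both with T0. A region 57170 bp from Axl, a receptor tyrosine kinase for apoptotic cells, lay in an intron of Hnrnpul1 and held a DR4-like sequence as well as an AGGTCA. It fell from 35.9 to 10.7 and from 26.2 to 4.93. A region 95135 bp from Scarb1, the HDL receptor, fell from 78.2 to 59.5 and from 55.3 to 39.1.

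Of 16 NF-kB and AP-1 factor genes 8 had a weakened region, and 13 of 168 shared regions were weakened (7.74%, 4.58 to 12.8). A region 98860 bp from Fos, next to the Tmed10 promoter, fell from 42.2 to 17.9 and from 50.5 to 15.9, and a region 49800 bp upstream of Jun with an AP-1 and a RUNX match from 38.1 to 15.8 and from 23.9 to 1.90. The region 30577 bp upstream of Atf3 held a PU.1 match and fell from 37.2 to 21.1 and from 45.0 to 22.4. Rel had 3 weakened regions among 8 shared regions.

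Of 11 macrophage lineage factor genes 3 had a weakened region, Spi1, Irf8 and Mitf, and 4 of 94 shared regions were weakened (4.26%, 1.67 to 10.4), with 0 doubly ranked. The region in an intron of Spi1, which encodes PU.1, fell from 34.9 to 22.0 and from 51.5 to 35.9. The region 16317 bp upstream of Irf8 fell from 32.8 to 20.5 and from 30.7 to 16.0. Ranked among shared regions only, it rose by 0.221 points from Veh to T0. Cebpa, Cebpb, Runx1 and Maf had none.

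Of 14 genes of the interferon pathway 5 had a weakened region, and 5 of 98 shared regions were weakened (5.10%, 2.20 to 11.4). Ifnb1, the gene of interferon beta, had 2, and both were doubly ranked. The nearer, at 6963 bp, held an AP-1 and an ISRE match and fell from 46.2 to 17.1 and from 52.0 to 37.4, and the farther, at 63871 bp, fell from 61.5 to 42.8 and from 34.7 to 17.1. Of 18 housekeeping genes, read as a comparison, 6 had a weakened region, and 10 of 159 shared regions were weakened (6.29%, 3.45 to 11.2). Except for the inflammatory cytokines, macrophage lineage and interferon lists, whose counts were of 3 to 5 regions, the shares of the lists lay between 6.29% and 15%, and the intervals of all 12 held 8.67%. Doubly ranked regions numbered 5 around the costimulatory list, 0 around the cytokine and lineage lists, and 2 or 3 around each other list.

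The genes with most weakened regions within 100 kb were on 2 stretches. On chromosome 10, D10Jhu81e and Pwp2 had 5 among 13 shared regions, in the same stretch as Icosl. On chromosome X, Tlr7 had 5 among 7 shared regions and Tlr8 5 among 14, with 4 of the regions in common. Tlr7 and Tlr8 are endosomal receptors for single-stranded RNA. The 2 regions in introns of Tlr7 fell from 55.6 to 34.8 and from 34.1 to 13.9, and from 61.3 to 47.5 and from 56.9 to 46.8, and the latter held a DR4-like sequence with an AGGTCA. The region in an intron of Tlr8 fell from 37.8 to 15.1 and from 32.0 to 19.8, and that 12467 bp upstream of it from 43.1 to 28.8 and from 58.9 to 44.0. A further 24 genes had 4 each, among them Icosl and Kat14, whose 4 were among 9 shared regions and of which 3 were doubly ranked.

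Weakened regions lay side by side about as often as other shared regions neighboured them. Another weakened region lay within 50 kb of 22.8% (interval 21.1 to 24.5) of them and of 22.8% of the other shared regions. By chromosome, the share of shared regions that were weakened ran from 7.36% on chromosome 15 (77 of 1046, 5.93 to 9.10) to 11.8% on chromosome X (70 of 595, 9.42 to 14.6), and 0 of 7 were weakened on chromosome Y. On the X chromosome the interval left out the 8.67% of all shared regions. With 21 chromosomes read, an interval may leave out that share by counting error alone.

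With LPS, weakened regions moved in both directions. The change from Veh to LPS had a median of -2.28 points, beside -1.95 points over all shared regions. It was a rise of 10 points or more in 14.9% (13.5 to 16.4), beside 10.3%, and a fall of that size in 26.3% (24.5 to 28.1), beside 24.6%. Of the doubly ranked regions 8.93% (6.98 to 11.3) rose and 28.0% (24.7 to 31.5) fell. In cells with the agonist, from T0 to T0-LPS, 18.2% of the weakened regions rose by 10 points or more and 24.4% fell, beside 20.6% and 16.6% of all shared regions. Of the doubly ranked regions 22.8% (19.8 to 26.2) rose and 20.4% (17.5 to 23.7) fell. Rises outnumbered falls there, as they did over all shared regions, and the 2 intervals overlapped. The fall with T0 was the larger one in unstimulated cells for 56.4% (54.4 to 58.4) of the weakened regions, against 63.3% of all shared regions, and for 76.7% (73.3 to 79.8) of the doubly ranked ones. The T0-LPS percentile was below that of Veh in 93.4%, beside 66.7%. These values are the same 4 that chose the regions, so that they carry no test, and the 2 h of extra culture cannot be told apart from LPS.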

How the data were processed

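Per the labels and the study's methods, the authors used cutadapt for adaptor trimming, Bowtie2 for alignment and SAMtools to drop PCR duplicates. Peak calling was with MACS2 (q threshold 0.001), which took the 4 libraries of a group as 1 input. They retained peaks at enhancers marked by H3K27ac or H3K4me2, using bedtools. The submitters' processing notes name mm10. The deposited lists give 1 score per peak, whose definition no header states, and scores were used as ranks within a list.

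Peaks that shared at least 1 bp were merged. Genes came from GENCODE vM21 and sequence from GRCm38. Of 169 list genes 167 were found as protein-coding (not Cxcl11 and Clec7a). Motif and GC shares left out 17 shared regions on unplaced contigs, and 0 weakened ones. The recovery of planted regions was tested on simulated data. Python 3.11.15 with numpy 2.4.6, pandas 2.3.3, scipy 1.17.1 and matplotlib 3.10.9 was used.

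Named regions were the 10 with the largest smaller fall, up to 3 by that order within 100 kb of a gene of each list, those of the 5 genes with most, the 5 leading regions with a DR4, and 3 on either side of the limit. Some regions that this rule names are not reported here. The regions and lists were chosen with earlier results of these data known. Alternatives varied the ranking, the size of the fall, a minimum score, peaks per region, overlap and windows. Lists per library and read depths were not used here, so depth is unknown.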

Additional observations from a re-analysis of the deposited data

How the results depend on the processing

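Of 53 recomputed values, 28 stayed within the interval of the value reported or, for counts, within 1.5 times of it, and 25 moved. Only the change with LPS could have changed sign, and it stayed negative in each setting. With percentiles among shared regions, the regions numbered 666, with 18.2% within 1 kb of a TSS, a median GC content of 48.5%, PU.1 in 14.1%, 31 list genes within 100 kb of a region instead of 74, and a median change with LPS of -1.01 points. With falls of at least 20 points, there were 206 regions and 15 list genes, with 17.0% near a TSS, a GC content of 48.0%, AGGTCA in 8.74%, DR4 in 2.91%, AP-1 in 12.6% and a change with LPS of -1.42 points. With peak scores of at least 200, 28.2% lay near a TSS, the GC content was 50.0% and the change with LPS -4.99 points, for 2673 regions. These were 15.1% of the 17746 regions then shared, beside 8.67% in the main setting. The share near a TSS over those 17746 regions was not computed. A TSS window of 500 bp gave 17.9%. A scan window of 400 bp gave a GC content of 48.5%, AGGTCA in 22.1%, DR4 in 3.62%, AP-1 in 20.0% and PU.1 in 13.9%, a wider window holding more letters. DR4 with up to 1 mismatch was in 0.131%, and a gene window of 10 kb left 16 list genes. With exactly 1 peak in each list, or an overlap of at least 50%, none of the 9 values moved. Regions with falls against those with rises numbered 206 against 3 with falls of 20 points, and 2673 against 51 with scores of at least 200. Falls far outnumbered rises in every setting except percentiles among shared regions. There the numbers were 666 and 660, and that ranking fixes the mean change but not these numbers. No paired analysis was possible because the 4 libraries of a group were pooled into 1 list, and for the same reason no library could be left out. Depth is unknown, so no limit of detection is given for a region.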
